A study of Mus musculus with 4 samples.

Results

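The miRNAs described here are arms of the miR-30 hairpins together with both arms of miR-384, taken by name from a list of 1038 known mouse miRNAs. The 9 members are mmu-miR-30a-5p, mmu-miR-30b-5p, mmu-miR-30c-5p, mmu-miR-30d-5p, mmu-miR-30e-5p, mmu-miR-30a-3p, mmu-miR-30e-3p, mmu-miR-384-5p and mmu-miR-384-3p, and all 9 were found in the list (the prefix mmu, for mouse, is left out below). Small RNAs were sequenced from the medial prefrontal cortices of male C57BL/6 mice that entered the study at postnatal day 21. The study's methods give the strain as C57BL/6J. The CUMS group received chronic unpredictable mild stress, a changing schedule of mild stressors, for 3 weeks, and the Control group did not. Each group had 2 libraries. CUMS mice were used only when they met the study's criteria in every behaviour test, so this group stands for stressed mice with depression-like behaviour and not for all stressed mice. RNA was isolated from each mouse, and the p-values below measure only the spread between these libraries.

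A miRNA is cut from a hairpin precursor whose strands give a 5p arm and a 3p arm. The arm that is mostly kept and loaded into Argonaute is called the guide. Below, the 5 miR-30 5p arms are called guides for short, also for miR-30c, whose arms had nearly equal reads. Bases 2 to 8 of a miRNA, the seed, do most of the pairing with target mRNAs, and miRNAs with the same seed form a family. The miR-30 family is abundant in many tissues, the brain included. miR-30a-5p has been studied as a regulator of brain-derived neurotrophic factor in the prefrontal cortex, and miR-384-5p has been studied with miR-26a in the maintenance of long-term potentiation at dendritic spines.

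Mature sequences were found in RefSeq (GRCm38.p6) for 7 of the 9 members. They are shown to make visible why miR-384-5p is grouped with miR-30, with the seed in capitals. The first set holds the 5p arms with the seed GUAAACA.
miR-30a-5p: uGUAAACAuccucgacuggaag
miR-30e-5p: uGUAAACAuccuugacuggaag
miR-30c-5p: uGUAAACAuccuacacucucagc
miR-384-5p: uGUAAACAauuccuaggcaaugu
The next set holds the 3p arms, in which miR-30a-3p and miR-30e-3p share the seed UUUCAGU and miR-384-3p has UUCCUAG.
miR-30a-3p: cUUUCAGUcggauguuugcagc
miR-30e-3p: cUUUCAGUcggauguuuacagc
miR-384-3p: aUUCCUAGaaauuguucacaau

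Counted from 1 at the 5′ end without gaps, miR-30a-5p and miR-30e-5p were the same at 21 of 22 bases and differed by C13U. miR-30a-3p and miR-30e-3p also differed at 1 base, by G18A. miR-30a-5p and miR-30c-5p shared their first 12 bases and differed at 5 of the later ones. miR-384-5p shared the first 8 bases with miR-30a-5p, which cover the seed, and from the next base on the sequences parted (U9A), with 4 of the remaining 14 bases the same. The likeness of miR-384-5p to miR-30 is thus limited to its 5′ end, and it did not extend to the other arm, since miR-384-3p and miR-30a-3p were the same at 9 of 22 bases. The miR-384 arms also held fewer G and C bases, 34.8% in miR-384-5p and 27.3% in miR-384-3p against 40.9% to 45.5% in the 3 miR-30 5p arms shown.

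The hairpins lie at separate places in the mouse genome (GRCm38, the labels' mm10; GENCODE M21). Mir30e (chr4:120772606-120772697) and Mir30c-1 (chr4:120769534-120769622) are on the minus strand in introns of Nfyc, which encodes a subunit of the transcription factor NF-Y, 2983 bases apart. Mir30a (chr1:23272269-23272339) and Mir30c-2 (chr1:23291701-23291784) are on the plus strand of chromosome 1, 19361 bases apart. Mir30a lies in no other annotated gene, and Mir30c-2 overlaps an exon of the long noncoding RNA gene Gm27028. Mir384 (chrX:105344282-105344369, minus strand) lies between genes on the X chromosome, 34712 bases from Mir325, the hairpin of miR-325. miR-30c-5p is made from both Mir30c-1 and Mir30c-2, so its reads cannot be assigned to either hairpin.

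The deposited values are group means of normalised reads, that is of reads divided by a size factor for each library. The reads behind each mean were solved as whole numbers for both libraries, and the libraries are called a and b within a group because the means do not tell the replicate numbers. The totals on known miRNAs were 10533646 (a) and 10783592 (b) reads for Control and 10427625 (a) and 9589323 (b) reads for CUMS, and values below are given in this order. The lowest level that 3 reads can show was between 0.278 and 0.313 CPM, which are reads scaled to the same miRNA total in each library. Such floors, and the Wilson intervals below, cover counting error only. With 2 libraries against 2, the smallest two-sided exact permutation p is 0.333, so that test could not pass 0.05 for any value given here.

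Control library b stood apart from the other 3 libraries. miR-182-5p, a miRNA of sensory and olfactory epithelium, took 8.92% of its reads against 0.0373% in Control library a and 0.0480% and 0.0685% in the CUMS libraries. All 8 of 8 miRNAs on the list for that epithelium were more than 10 times higher in Control library b than in any other library, and their summed level was 4047 and 1004810 normalised reads under Control against 4936 and 7329 under CUMS. The labelled tissue was checked with 5 of 5 neuronal miRNAs, led by miR-9-5p, whose sum was 854580 and 727910 under Control against 819331 and 964844 under CUMS. The log2 differences of the members, the guide sum and the ratios of miR-384-5p to the guides and to its 3p arm are given below with and without this library, and most other values are given only with it.

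The epithelium list summed to more than the neuronal list in Control library b and to less in the other libraries. The remaining lists were lower than the neuronal list in every library, and for some the groups did not overlap. The 3 oligodendrocyte miRNAs, led by miR-338-3p, summed to 7887 and 8365 normalised reads under Control against 6162 and 7338 under CUMS. The choroid plexus pair, led by miR-204-5p, summed to 16942 and 22015 under Control against 15959 and 12627 under CUMS. Of the 3 muscle miRNAs 2 were listed, led by miR-133a-3p, with sums of 226.0 and 348 under Control against 194.0 and 197 under CUMS. For these 3 lists both CUMS sums lay below both Control sums. The choroid plexus and muscle sums were nearly all miR-204-5p and miR-133a-3p. The other miRNA of the choroid plexus pair overlapped between the groups. The other listed muscle miRNA had few reads and a higher mean in CUMS. The 3 red cell miRNAs, led by miR-486a-5p, summed to 119742 and 115169 under Control against 114587 and 135230 under CUMS, and overlapped. The liver miRNA miR-122-5p had 0 reads in both Control libraries and 1 read in each CUMS library. No listed marker had 0 reads in all 4 libraries.

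The family spanned a wide range of levels. miR-30a-5p was the 10th most abundant of all listed miRNAs, with 266526 and 269801 Control reads against 267296 and 285702 CUMS reads. miR-30d-5p had 72934 and 66325 Control reads against 56363 and 73315 CUMS reads. miR-30e-5p had 33117 and 31325 Control reads against 28603 and 34130 CUMS reads. These 3 guides were the most abundant members in every library. Below them came miR-30e-3p (14316 to 16799 reads over the libraries) and miR-30a-3p (10492 to 13415 reads). miR-30c-5p had 4028 to 4927 reads and miR-30b-5p 1831 to 3256 reads. After normalisation, the ranges of neighbours in this order did not overlap from miR-30a-5p down to miR-384-5p. The lowest members were miR-384-5p (245 to 640 reads) and miR-384-3p (306 to 349 reads), and their normalised ranges overlapped. Reads of different miRNAs were compared as sequenced, since these miRNAs have nearly the same length, and how well each is ligated and amplified was not measured.

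**Figure D1:**
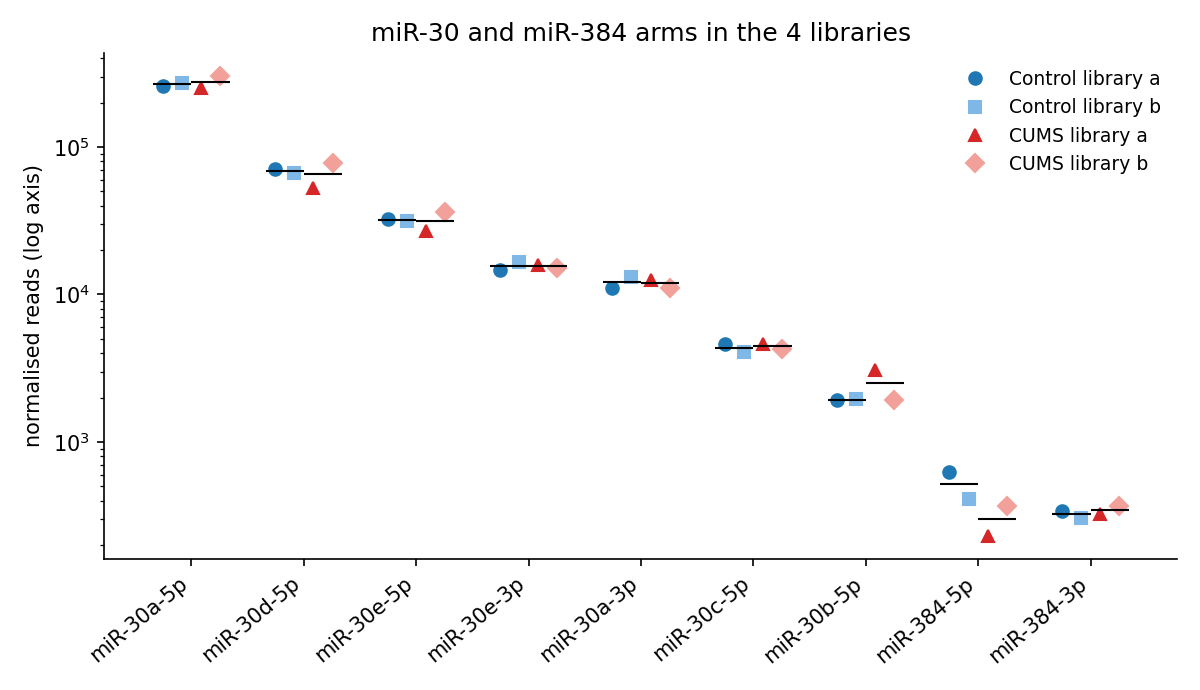
Normalised reads (log axis) of the 9 members in the 4 libraries, ordered by mean level, with black lines at the group means. Levels run from 230.7 normalised reads for miR-384-5p in CUMS library a to 302707 for miR-30a-5p in CUMS library b.

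Together the 5 miR-30 guides and miR-384-5p made up 3.61% and 3.47% of the miRNA reads under Control against 3.46% and 4.16% under CUMS. Most of this seed family was miR-30a-5p, whose share was 70.2% (95% Wilson interval 70.0% to 70.3%) and 72.2% (72.0% to 72.3%) in the Control libraries. In the CUMS libraries its share was 74.1% (74.0% to 74.2%) and 71.5% (71.4% to 71.7%). miR-384-5p was the smallest part in every library. Its share was 0.168% (0.156% to 0.182%) and 0.110% (0.100% to 0.122%) in Control and 0.0679% (0.0599% to 0.0770%) and 0.0866% (0.0780% to 0.0963%) in CUMS. Among miRNAs with this seed, reads of miR-30a-5p thus far outnumbered those of miR-384-5p in all 4 libraries.

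The comparison of CUMS with Control asks which miRNAs differ in the prefrontal cortex of mice with depression-like behaviour. Of the 9 members 8 overlapped between the groups, and miR-384-5p was lower in both CUMS libraries than in both Control libraries. With limma on log2 normalised reads plus 1, 0 of the 9 members were called at an adjusted p under 0.05, against a background of 0% of the 719 miRNAs that reached 5 reads in at least 1 library. At an unadjusted p under 0.05, limma gave 1 member, miR-384-5p, beside 28 of 719 miRNAs (3.89%). The edgeR quasi-likelihood test and the DESeq2 Wald test on the recovered reads also called 0 miRNAs, with 30 and 24 miRNAs at an unadjusted p under 0.05. For all miRNAs the groups did not overlap with CUMS lower for 17.1% and with CUMS higher for 16.7%, and among the members these counts were 1 and 0. Separation of the groups was thus no more frequent among the members than in the list as a whole. Without Control library a, limma called 7 of 690 miRNAs, and 0 of them were members.

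miR-384-5p had 640 and 413 Control reads against 245 and 346 CUMS reads, or 60.8, 38.3, 23.5 and 36.1 CPM. Control library a was the highest, CUMS library a was the lowest, and Control library b was close to CUMS library b. The 95% Wilson intervals of these nearest libraries overlapped, with 34.8 to 42.2 CPM in Control library b and 32.5 to 40.1 CPM in CUMS library b. The normalised mean was 519 ± 151 (SD, n = 2) in Control and 298.6 ± 96.1 (SD, n = 2) in CUMS, so that the Control mean was 1.74 times the CUMS mean. The log2 difference was -0.80 (95% interval -1.55 to -0.05) with a limma adjusted p of 0.835. DESeq2 gave -0.80 (standard error 0.31) with an adjusted p of 0.573, and edgeR gave -0.84 with an adjusted p of 0.849. The difference therefore did not pass the correction with any of these tools. It was -1.10 without Control library b and -0.50 without Control library a, and -0.47 without CUMS library a and -1.14 without CUMS library b. miR-384-5p was listed as changed by the study from these same libraries, so its difference is a description and not independent evidence.

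A Control mean more than 1.5 times the CUMS mean was uncommon among the 282 miRNAs with at least 100 reads in every library. Most of these were more abundant than miR-384-5p, which ranked 228th of all listed miRNAs. Their share is therefore not one at its own depth. Of the 282, 2.48% had such a fold, miR-384-5p included, and of the 9 members, all in this set, 1 did. Without Control library b this share was 1.77%, and with another library left out it was 3.90% to 4.61%. The Control mean of miR-384-5p was then 2.10 times the CUMS mean without Control library b and 2.25 times without CUMS library b, but 1.38 times without Control library a and 1.42 times without CUMS library a, which is under 1.5. The libraries of a group also differed more for miR-384-5p than for most such miRNAs. The higher library was 1.52 times the lower one in Control and 1.59 times in CUMS, against medians of 1.12 and 1.17 over the 282. The sums of the oligodendrocyte, choroid plexus and muscle lists described above were lower in both CUMS libraries as well. The choroid plexus and muscle sums were nearly all 1 miRNA each. The part of these cell types in the difference of miR-384-5p was not tested. In bulk tissue, fewer cells that make a miRNA and less of it in each cell cannot be told apart.

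**Figure D2:**
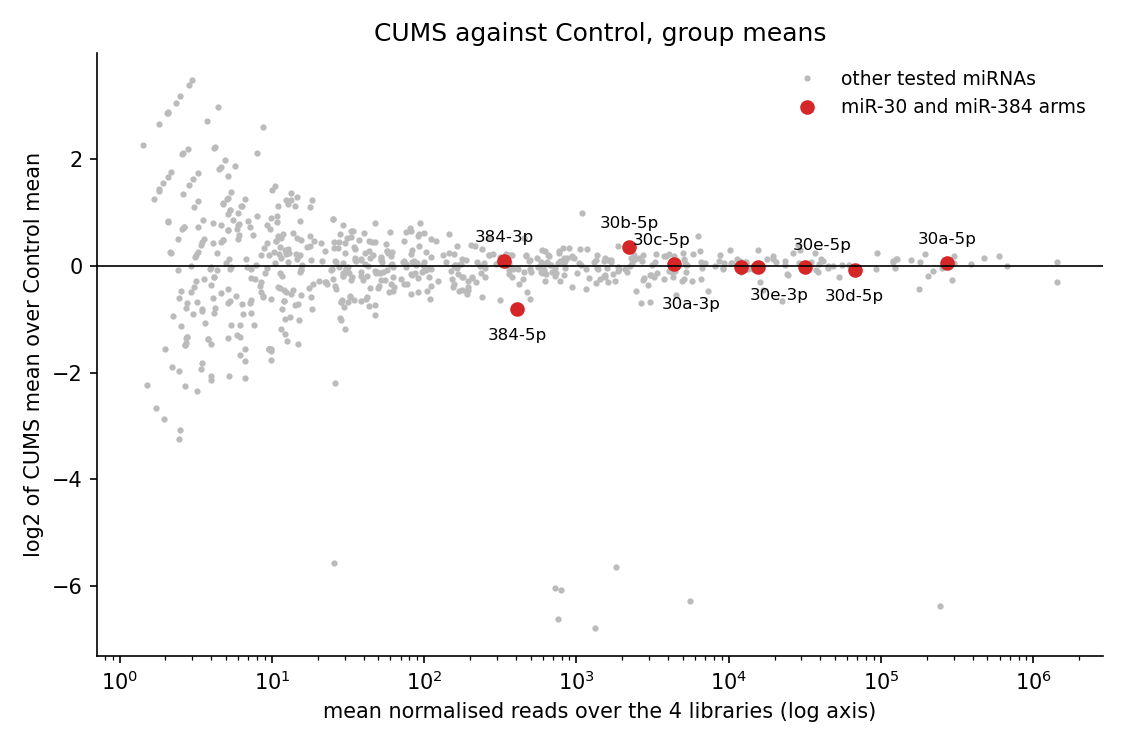
Log2 of the CUMS mean over the Control mean against the mean normalised reads (log axis) for the tested miRNAs, with the 9 members in red; 18 miRNAs at 0 in a group are not drawn. Of the members, miR-384-5p at -0.80 lies apart from 0 and the other 8 lie between -0.07 and 0.37.

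The abundant guides differed little between the group means. miR-30a-5p averaged 265197 ± 6358 normalised reads in Control and 277191 ± 36084 in CUMS (SD, n = 2), a log2 difference of 0.06 (95% interval -0.31 to 0.43, limma). For miR-30d-5p the means were 68819 ± 3565 and 65374 ± 17401, with a log2 difference of -0.10 (-0.59 to 0.39). For miR-30e-5p they were 31853 ± 764 and 31546 ± 6526, with a log2 difference of -0.03 (-0.45 to 0.40). For these 3 guides the Control libraries were close together and lay between the CUMS libraries, with CUMS library a below and CUMS library b above them. Without Control library b the differences were 0.08, -0.15 and -0.05. Their signs rested on the CUMS libraries, with 0.19, 0.18 and 0.18 without CUMS library a and -0.08, -0.37 and -0.24 without CUMS library b. The limma adjusted p was 0.948, 0.948 and 0.961, and the intervals still allow differences of about the size seen between the CUMS libraries.

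The other 2 guides and the 3p arms of miR-30a and miR-30e had the opposite order, with CUMS library a above CUMS library b. miR-30b-5p had 1919 and 1963 normalised reads under Control against 3066 and 1940 under CUMS. CUMS library a alone was high, and the other 3 libraries were nearly equal. Its log2 difference was 0.33 (-0.24 to 0.90) with a limma adjusted p of 0.835. miR-30c-5p was also higher in CUMS library a than in CUMS library b, at 4639 against 4268, with 4595 and 4069 in Control. The 3p arms miR-30a-3p and miR-30e-3p were likewise higher in CUMS library a than in b, by 1.14 and 1.04 times, and their log2 differences between the groups were -0.02 and -0.01. miR-384-3p, the partner of miR-384-5p, had 341 and 306 normalised reads under Control against 326 and 369 under CUMS. Its log2 difference was 0.10 (-0.38 to 0.58) and its groups overlapped. Without Control library b, the differences of miR-30b-5p and miR-384-3p were 0.35 and 0.02, and those of miR-30c-5p, miR-30a-3p and miR-30e-3p turned to -0.05, 0.10 and 0.08. Without CUMS library a, that of miR-30b-5p was -0.00079. Over the 9 members the median log2 ratio of the group means was -0.01, and over the 719 miRNAs it was 0.02. With total miRNA reads in place of the size factors, the differences of miR-30e-5p, miR-30a-3p and miR-30e-3p turned to 0.05, 0.05 and 0.07.

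**Figure D3:**
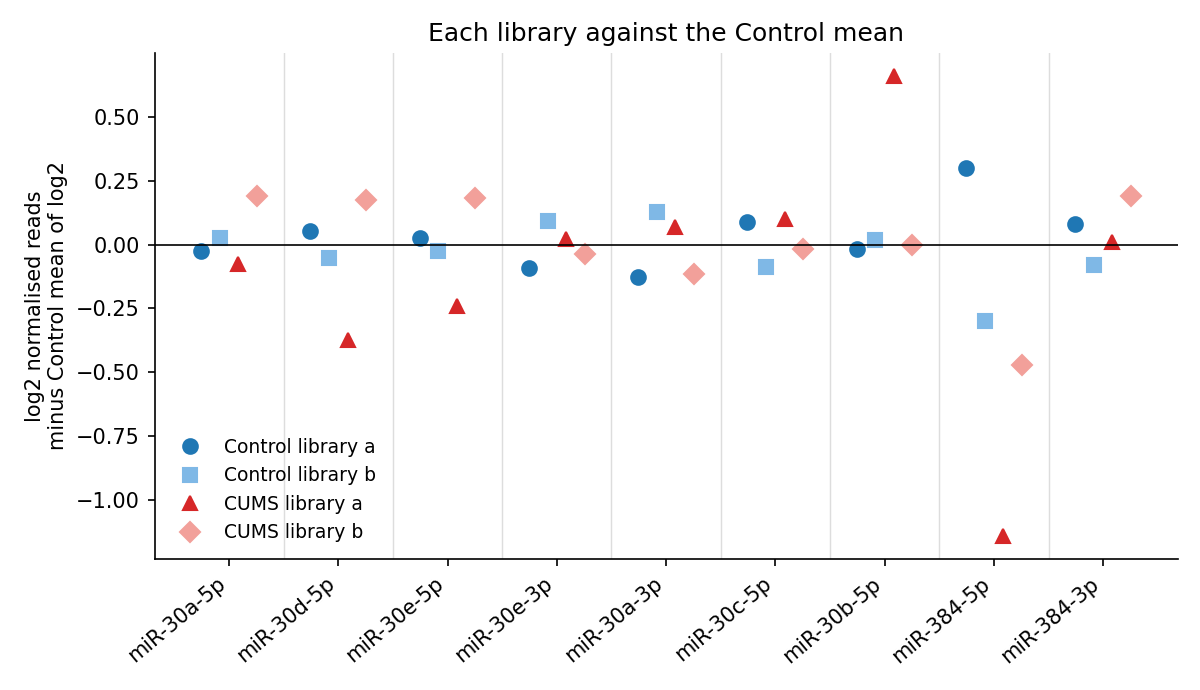
Log2 normalised reads of each library minus the Control mean of log2, for the 9 members; circles and squares are Control, triangles and diamonds CUMS. For miR-384-5p both CUMS libraries lie below both Control libraries, for miR-30b-5p CUMS library a alone is high, and for miR-30a-5p, miR-30d-5p and miR-30e-5p the CUMS libraries lie on either side of Control.

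miR-384-5p was then set against the family within each library, which needs no size factor. The 5 miR-30 guides summed to 370949 and 373337 normalised reads under Control against 339382 and 422754 under CUMS. The groups overlapped, and the log2 difference of the sums was 0.03 (two-sided exact permutation p = 1, n = 2 per group). Its sign rested on the scaling, with -0.0094 under TMM factors and 0.10 under total miRNA reads, and it was 0.03 without Control library b and -0.13 without CUMS library b. For every 10000 guide reads there were 16.9 and 11.1 miR-384-5p reads under Control against 6.80 and 8.67 under CUMS. Both CUMS values lay below both Control values. The log2 difference of this ratio was -0.83, that is 1.78 times higher in Control, with SDs of 0.43 in Control and 0.25 in CUMS (exact permutation p = 0.333, the smallest possible). It was -0.53 without Control library a and -1.14 without Control library b, each resting on a lone Control library. Control library b had the ratio nearer to CUMS, so leaving it out could only widen the difference.

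**Figure D4:**
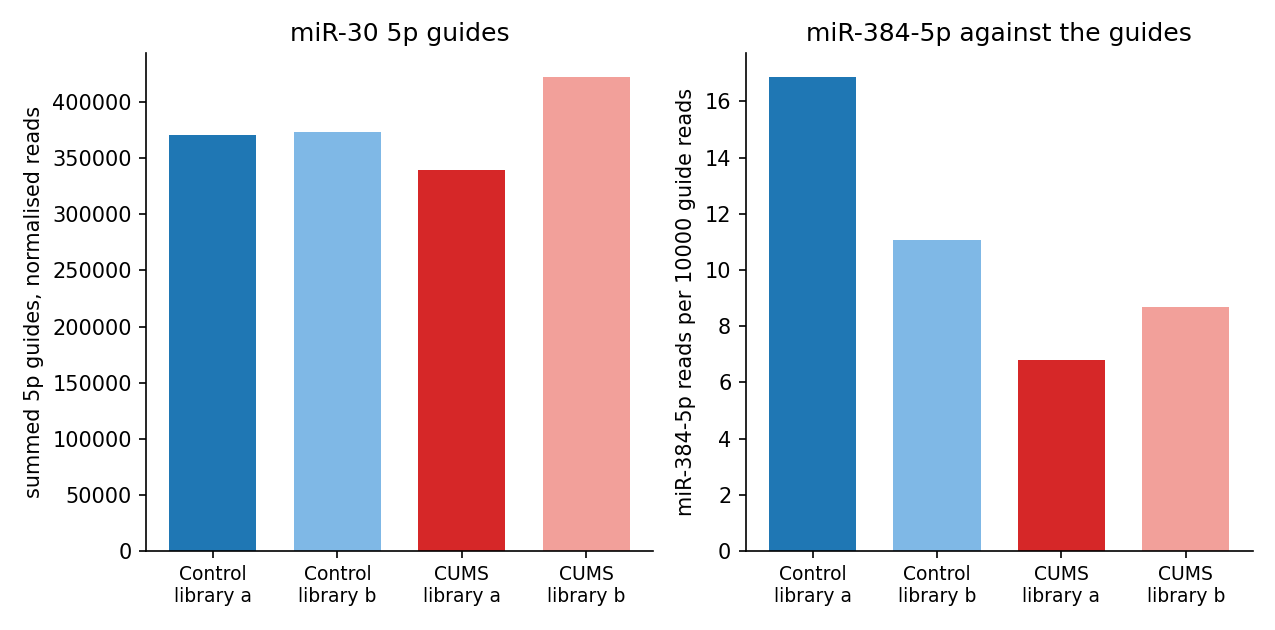
Bars from 0 for each library, with the summed normalised reads of the 5 miR-30 guides on the left and miR-384-5p reads per 10000 guide reads on the right. The sums overlap between the groups (339382 to 422754), and the ratio is 11.1 or more in Control and 8.67 or less in CUMS.

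The arms of a hairpin come from the same precursor, so their ratio compares products of a single hairpin within a library. For miR-384 the 5p reads were 1.83 and 1.35 times the 3p reads in the Control libraries and 0.708 and 0.994 times in the CUMS libraries. The 5p arm was thus the larger one in both Control libraries, the 3p arm was larger in CUMS library a, and the arms were almost equal in CUMS library b, with 346 and 348 reads. The log2 difference of the ratio was -0.91, with SDs of 0.31 in Control and 0.35 in CUMS (exact permutation p = 0.333, and 1 after adjustment over 6 hairpins). It was -1.13 without Control library b and -0.66 without CUMS library a.

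In miR-30a, miR-30b, miR-30d and miR-30e the 5p arm was the larger one by different margins, in miR-30c the arms were nearly equal, and the groups overlapped for all 5. miR-30d gave 153 to 220 reads of 5p for each 3p read (220 in CUMS library b), and miR-30b gave 91.5 to 151. The 3p arm of miR-30b had 13 to 24 reads, so that its ratio has a large counting error. miR-30a gave 23.6 and 20.5 under Control against 19.9 and 27.2 under CUMS. miR-30e gave 2.22 and 1.89 under Control against 1.70 and 2.38 under CUMS. For miR-30a, miR-30d and miR-30e alike, CUMS library b had the highest ratio and CUMS library a the lowest, and their log2 differences between the groups were 0.08, 0.10 and -0.02. For miR-30c the 5p reads were 1.18 and 0.978 times the summed 3p reads of its hairpins in Control and 0.991 and 0.971 times in CUMS. The exact permutation p of these 5 hairpins was 0.667 or 1.

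Over the 54 hairpins with at least 100 reads on both arms in every library, the ratio of 5p to 3p was lower in CUMS without overlap for 7 (13.0%), and of the 4 hairpins of miR-30 and miR-384 among them this held for miR-384. Its log2 difference was the largest in size of the 54, whose median size was 0.11. It was also the single hairpin of the 54 whose larger arm was different in both CUMS libraries from that in both Control libraries, although by 2 reads in CUMS library b. miR-384-3p had a log2 difference of 0.10, so the ratio mostly carries the -0.80 of miR-384-5p again. The study listed miR-384-5p as changed from these same libraries. The rank of miR-384 and its change of larger arm are therefore a description and not independent evidence. limma over the log2 ratios of the 54 hairpins, chosen after the data were seen, gave miR-384 a 95% interval of -1.53 to -0.29 and an adjusted p of 0.651. By limma 0 of the 54 were called and 1, miR-384, had an unadjusted p under 0.05. The log2 difference of miR-384 was -1.15 without CUMS library b and -0.66 without CUMS library a. It was -0.69 without Control library a and -1.13 without Control library b. Each of these leaves a lone library in a group, whose spread is then not measured.

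**Figure D5:**
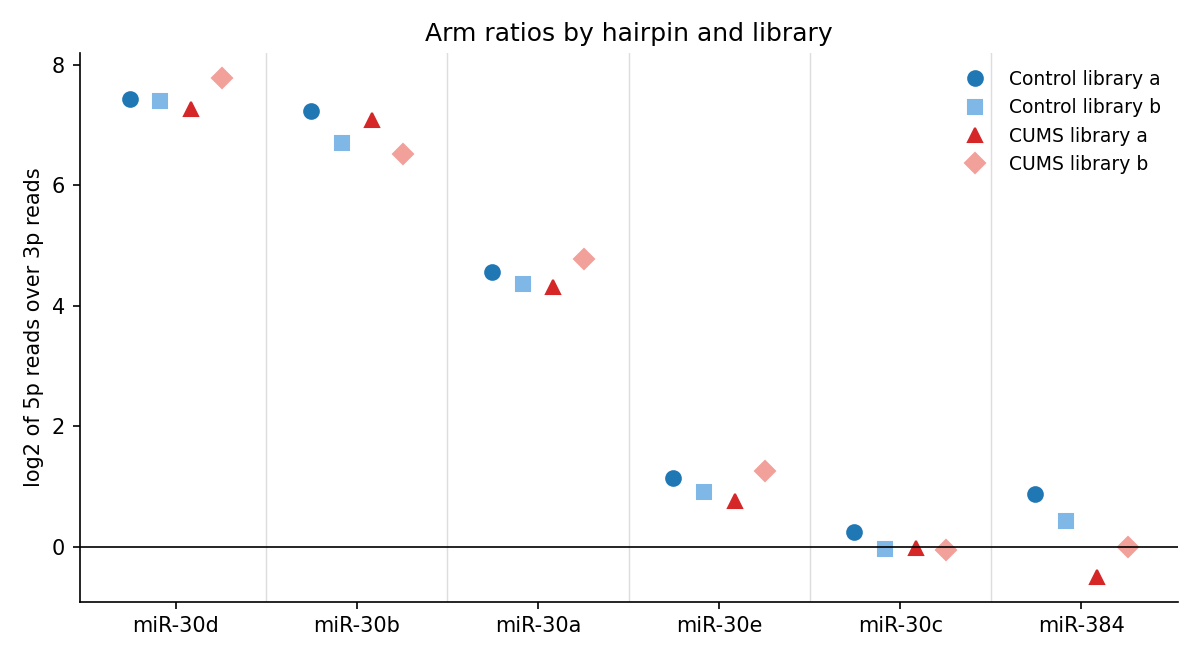
Log2 of 5p reads over 3p reads in each library for the miR-30 hairpins and miR-384, where 0 means equal reads of both arms and miR-30c uses the summed 3p reads of its hairpins. The points of miR-384 lie at 0.87 and 0.43 in Control and at -0.50 and -0.01 in CUMS, and the groups of the other 5 hairpins overlap.

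The 3p arms outside the 9 members add the other products of these hairpins. miR-30c-2-3p had 3478 and 3691 Control reads against 4382 and 3700 CUMS reads, and miR-30c-1-3p had 498 and 472 under Control against 592 and 449 under CUMS. The former was 6.98 and 7.82 times the latter in Control and 7.40 and 8.24 times in CUMS. The 3p arm of Mir30c-2 thus had more reads than that of Mir30c-1 in every library. Of the 719 tested miRNAs, 17.1% were lower and 16.7% higher in CUMS without overlap of the groups. After normalisation, miR-30c-2-3p and miR-30b-3p were higher in both CUMS libraries and miR-30d-3p (421 and 392 reads in Control, 368 and 334 in CUMS) was lower in both. Their limma log2 differences were 0.18, 0.47 and -0.20, with adjusted p of 0.869, 0.886 and 0.886. That of miR-30b-3p, which had few reads, was 0.19 without Control library a and 0.74 without Control library b.

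miR-325, the neighbour of miR-384 on the X chromosome, was sequenced at low levels. miR-325-3p had 33 and 38 Control reads against 22 and 23 CUMS reads. Both CUMS values lay below both Control values, as for 17.1% of the 719 tested miRNAs. Its limma log2 difference was -0.62 (-1.47 to 0.24) with an adjusted p of 0.835. miR-325-5p had 29 and 22 Control reads against 32 and 17 CUMS reads, and overlapped. miR-26a-5p, which does not share the miR-30 seed, had 294485 and 304916 Control reads against 321784 and 293093 CUMS reads. Its log2 difference was 0.05 (-0.27 to 0.37), and its level was of the order of that of miR-30a-5p and far above that of miR-384-5p.

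The patterns most like those of the family were found by the root mean square distance of centred log2 normalised reads over the 4 libraries. Among 281 other miRNAs with at least 100 reads in every library, miR-10a-5p was the nearest to miR-384-5p, with a distance of 0.13. Its normalised reads were 4158 and 3315 under Control against 1662 and 3028 under CUMS. miR-146b-5p (distance 0.19) and miR-382-3p (0.26) came next, and for both of them the Control libraries enclosed CUMS library b. The summed miR-30 guides were followed most closely by miR-541-5p (distance 0.02), with 48127 and 48708 normalised reads under Control against 42771 and 54274 under CUMS. miR-486b-5p (0.04) and miR-486a-5p (0.05), which are abundant in red cells and had nearly the same reads in each library, came next among 277. With 4 libraries, many miRNAs can follow the same order.

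Calb2, which encodes the calcium-binding protein calretinin of some cortical interneurons, was considered by the study together with miR-384-5p. The complement of the shared seed, TGTTTAC, was searched on the transcript strand of its longest 3′ UTR of 546 bases. It occurred once, at chr8:110142584-110142590 on the minus strand, starting at base 494 of the 3′ UTR, and is shown in capitals to place the seed match in its context.
Calb2: cctgtcttctTGTTTACcaaagaagag
The same letters occurred in 13.8% of the longest 3′ UTRs of 20350 protein-coding genes searched, and in 5.64% of the 1047 whose length was within 10% of that of Calb2. The match is to bases that miR-384-5p shares with miR-30a-5p, miR-30c-5p and miR-30e-5p, so it does not tell these miRNAs apart. It is a description of the sequence, and no mRNA level was analysed here.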

How the data were processed

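Small RNA of 2 Control and 2 CUMS libraries of mouse medial prefrontal cortex was analysed. The authors removed low-quality, adaptor and other noncoding RNA reads, matched clean reads of 18 to 25 nt to miRBase precursors without mismatch, required at least 16 nt of overlap with the mature miRNA, and compared the groups with DESeq; the labels name Bowtie and mm10, and no versions are given for these miRNA steps. The signal in the deposited table is each group's mean of reads divided by size factors. Its fold, log2 fold and p-value columns were not used. The table has no replicate numbers, and its 2 mean columns were assigned to the groups from the study's printed values.

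Each mean was solved as whole reads of 2 libraries, each times its own step. All 1038 values of each group (100%) came out whole at a relative tolerance of 1e-09. A next-best solution was close for 2 Control values, neither a member. Size factors computed from the recovered reads were 1.02, 1.00, 1.06 and 0.944, as in the steps. The recovery and the fits were tested on simulated data.

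limma 3.58.1 (trend) was fitted to log2(reads / size factor + 1) over the 719 miRNAs that reached 5 reads in at least 1 library, with Benjamini-Hochberg adjustment. On the recovered reads, edgeR 4.0.16 (quasi-likelihood, TMM) and DESeq2 1.42.0 (Wald) each called 0 miRNAs. Differences on this scale understate those of low miRNAs. Ratios were compared by two-sided exact permutation tests. R 4.3.3 and Python 3.11.15 with numpy 2.4.6, pandas 2.3.3, scipy 1.17.1 and matplotlib 3.10.9 were used. Alternatives covered the tool, scaling, pseudocount, filter, the make-up of the guide sum, and each library left out.

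The named miRNAs are the 9 members, the other listed arms of the miR-30 hairpins, miR-325, miR-26a-5p, the 3 nearest patterns to miR-384-5p and to the guide sum, and the most abundant miRNA of each marker list. The members and lists were chosen with earlier results of these data known.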

Additional observations from a re-analysis of the deposited data

How the results depend on the processing

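The count of 0 members called by limma held under all 11 alternatives, which were edgeR, DESeq2, TMM factors, total miRNA reads, a pseudocount of 5, no filter, a filter of 50 reads in every library and each library left out. The count of all miRNAs called ranged from 0 to 7 with 1 library left out, and was 7 without Control library a, which leaves Control library b as the lone Control library. A lone library is assumed to vary like the other group. The log2 difference of miR-384-5p was below 0 under all 11 alternatives, from -1.14 to -0.47, with adjusted p from 0.573 to 0.989 by the tools named.

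The log2 difference of the summed miR-30 guides was -0.0094 with TMM factors, against 0.03 with size factors, and ranged from -0.13 to 0.18 with 1 library left out; the cause was not tested. The difference of miR-384-5p against the guides kept its direction under all alternatives, and so did the arm ratio of miR-384. The log2 differences of the other arm ratios crossed 0 when 1 library was left out. They ranged from -0.14 to 0.31 for miR-30a, from -0.27 to 0.22 for miR-30e, from -0.45 to 0.12 for miR-30b, from -0.27 to 0.00404 for miR-30c and from -0.16 to 0.36 for miR-30d. Setting miR-384-5p against miR-384-3p and the limma fit over hairpins were added after seeing the data.

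The log2 differences of 7 of the other 8 members crossed 0 with 1 library left out. They ranged from -0.075 to 0.19 for miR-30a-5p, from -0.00079 to 0.66 for miR-30b-5p, from -0.047 to 0.13 for miR-30c-5p, from -0.37 to 0.18 for miR-30d-5p and from -0.24 to 0.18 for miR-30e-5p. For miR-30a-3p the range was -0.15 to 0.10 and for miR-30e-3p it was -0.10 to 0.085. miR-384-3p stayed above 0, from 0.01 to 0.19. Of these 8, 3 turned without Control library b, 4 without CUMS library a, 3 without CUMS library b and 0 without Control library a, and 0 were called. These fits were added after seeing the data.

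No paired analysis was possible because the recovered libraries cannot be tied to the replicate numbers of the labels. Members with few reads, miR-384-5p and miR-384-3p above all, carry the largest counting error at this depth.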
